A study of Mus musculus with 18 samples.

Results

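Matricellular proteins are secreted into the extracellular matrix but act there on cells more than as scaffolding. The genes followed here were 4 CCN family genes (Ccn1, Ccn2, Ccn4 and Ccn5, earlier Cyr61, Ctgf, Wisp1 and Wisp2), the thrombospondins Thbs1 and Thbs2, and Postn, Tnc, Spp1 and Spon2. They were 10 named genes, and 9 of them had a probe, 22 probes in all among the 45281 of the array. Spp1, the osteopontin gene, had no probe in the annotation used and enters only the promoter search below. The members had been chosen from their dexamethasone differences at 6 h and 24 h in these same arrays, so those differences are described below without a test.

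The RNA came from C2C12 myotubes, muscle fibre-like cells that form when a mouse myoblast line fuses, and was hybridised to Illumina mouse whole-genome bead arrays. The groups were dexamethasone (Dex, a synthetic glucocorticoid) at 1 uM for 6 h (4 arrays), ethanol vehicle for 6 h (4 arrays), Dex at 1 uM for 24 h (5 arrays) and ethanol vehicle for 24 h (5 arrays). All cultures were in medium with 2% horse serum, and the vehicle was 0.01% of its volume. All cells were of 1 line, and no label says that the arrays of a group came from separate cultures. The spread behind each p-value, taken between arrays, may be technical.

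CCN proteins are built from insulin-like growth factor-binding, von Willebrand type C, thrombospondin type 1 and cysteine-knot modules, and they bind integrins and heparan sulphate. Thrombospondins 1 and 2 are trimers that bind the receptors CD36 and CD47, and thrombospondin 1 can activate latent TGF-beta. In muscle, matricellular genes are known from regeneration and fibrosis, and Ccn1 and Ccn2 are textbook targets of mechanical and serum signals through the cofactors YAP and TAZ.

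Promoter windows of 300 bases, from 250 before to 50 after the annotated start, were at hand for 5 of the 10 members, with 8 starts (RefSeq, GRCm38.p6). These were Ccn1, Thbs2, Tnc, Postn and Spp1. No window was at hand for Ccn2, Ccn4, Ccn5, Thbs1 and Spon2. Those of Ccn1, Thbs2 and Tnc are shown, as genes that were higher with Dex mainly at 6 h, higher at 24 h but not at 6 h, and lower at both times. Capitals mark TATAAA on either strand and, in Ccn1, GGAATG on the opposite strand, the core letters of the TEAD factors that YAP and TAZ join.
Ccn1, chr3:145649936-145650235, minus strand: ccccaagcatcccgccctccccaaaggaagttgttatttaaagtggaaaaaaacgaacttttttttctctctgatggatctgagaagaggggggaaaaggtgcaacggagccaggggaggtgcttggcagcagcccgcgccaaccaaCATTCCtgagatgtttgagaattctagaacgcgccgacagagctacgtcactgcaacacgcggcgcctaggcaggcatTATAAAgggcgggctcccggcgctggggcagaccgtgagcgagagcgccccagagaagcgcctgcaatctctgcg
Thbs2, chr17:14694213-14694512, minus strand: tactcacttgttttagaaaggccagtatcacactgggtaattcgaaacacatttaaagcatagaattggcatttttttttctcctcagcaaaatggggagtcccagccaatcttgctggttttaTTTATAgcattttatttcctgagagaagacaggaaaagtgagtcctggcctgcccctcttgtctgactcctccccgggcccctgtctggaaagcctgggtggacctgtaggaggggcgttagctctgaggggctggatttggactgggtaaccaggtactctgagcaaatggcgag
Tnc, chr4:64046887-64047186, minus strand: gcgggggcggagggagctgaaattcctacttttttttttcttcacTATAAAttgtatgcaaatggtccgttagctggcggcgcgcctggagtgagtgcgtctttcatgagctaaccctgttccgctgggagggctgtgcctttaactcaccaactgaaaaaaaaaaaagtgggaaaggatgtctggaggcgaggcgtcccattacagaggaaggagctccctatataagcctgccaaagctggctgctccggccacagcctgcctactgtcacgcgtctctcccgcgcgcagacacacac
In Ccn1 the capitals lie 103 and 25 bases before the start. In Thbs2 they lie 126 bases and in Tnc 205 bases before it.

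Both strands of all windows were searched for 6 motifs. The glucocorticoid receptor palindrome (AGNACA, a gap of 3 bases and its reverse complement) was in 0 of the 8 member windows and in 0.0639% of all 32851 windows. Its half-site AGAACA, which the palindrome can contain, was in 0 of the 8 and in 19% of all windows, the AP-1 motif TGANTCA in 0 and 7.81%, and the CArG box in 0 and 1.63%. GGAATG was in 1 of the 8 and in 14.7%, and TATAAA in 6 of the 8 and in 13.6%. The 2 Tnc windows overlap and share their TATAAA. These counts say only which letters stand in these short windows, and they do not cover Ccn2, Ccn4, Ccn5, Thbs1 and Spon2.

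The cells read as myotubes. All 11 measured myotube markers, among them Myog, Acta1 and Ckm, had at least 1 probe above the 75th percentile of every array. Some other probes of Myh1, Actn2 and Ttn did not reach it on every array. None of the osteoblast, endothelial and macrophage markers had such a probe. Of the myoblast and fibroblast or tendon markers, Myod1, Pdgfra and Scx had. At 24 h 5 of 28 myotube marker probes passed the limma test, 3 higher and 2 lower with Dex (17.9% against 12.6% of all probes). Myog fell (-0.44 and -0.32), Ckm (0.30) and Actn2 (0.45 and 0.56) rose, and the groups overlapped. At 6 h 3 of the 28 passed, 2 higher and 1 lower (10.7% against 6.26%). Myod1 had -0.27 at 24 h (limma adjusted p = 0.0173), with overlapping groups. The summed intensity of the 4 fibroblast or tendon markers was 6167 to 6688 with Dex and 7413 to 7542 with ethanol at 6 h. At 24 h it was 2971 to 3373 with Dex and 3405 to 4404 with ethanol, so the groups did not overlap at either time. Scx made up most of these sums. Its means were 5531 with Dex and 6784.5 with ethanol at 6 h, and 2538 and 3569 at 24 h. The sums thus mainly follow Scx. Within that list Scx fell, with log2 differences of -0.30 at 6 h and -0.49 at 24 h (limma adjusted p = 0.0133 and 1.09e-05), and Pdgfra (ILMN_1235932) rose, with 0.59 and 0.60 (limma adjusted p = 0.000124 and 1.41e-05). The other Pdgfra probe (ILMN_2544724), near the array medians, had -0.07 and 0.04. The part of these cells in the results below was not tested. In bulk RNA, fewer cells of a type and less RNA per cell cannot be told apart. The array medians were 99.8 to 100.4 at 6 h and 85.2 to 86.8 at 24 h, and probes near these values are not shown to be above background.

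The matricellular genes differed in both directions between Dex and ethanol. Ccn2 was 3.65- and 3.54-fold higher with Dex at 6 h on its 2 probes, Thbs2 2.91-fold at 24 h, and Ccn1 1.59-fold at 6 h on 1 of its probes, whereas Spon2, Ccn4, Tnc and Thbs1 were dimmer. Of the 22 probes, 4 were higher and 5 lower with no overlap between the Dex and ethanol arrays at 6 h. At 24 h 6 were higher and 6 lower. Over all 45281 probes the groups did not overlap for 9.24% at 6 h (4.51% higher and 4.73% lower) and 13.7% at 24 h (6.99% higher and 6.71% lower). Nothing is read from these counts, since the members were picked on this contrast. The median log2 difference of the 22 probes was -0.02 at 6 h and -0.03 at 24 h, with about as many probes above 0 as below, and that of all probes was 0.00 at either time.

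**Figure D1:**
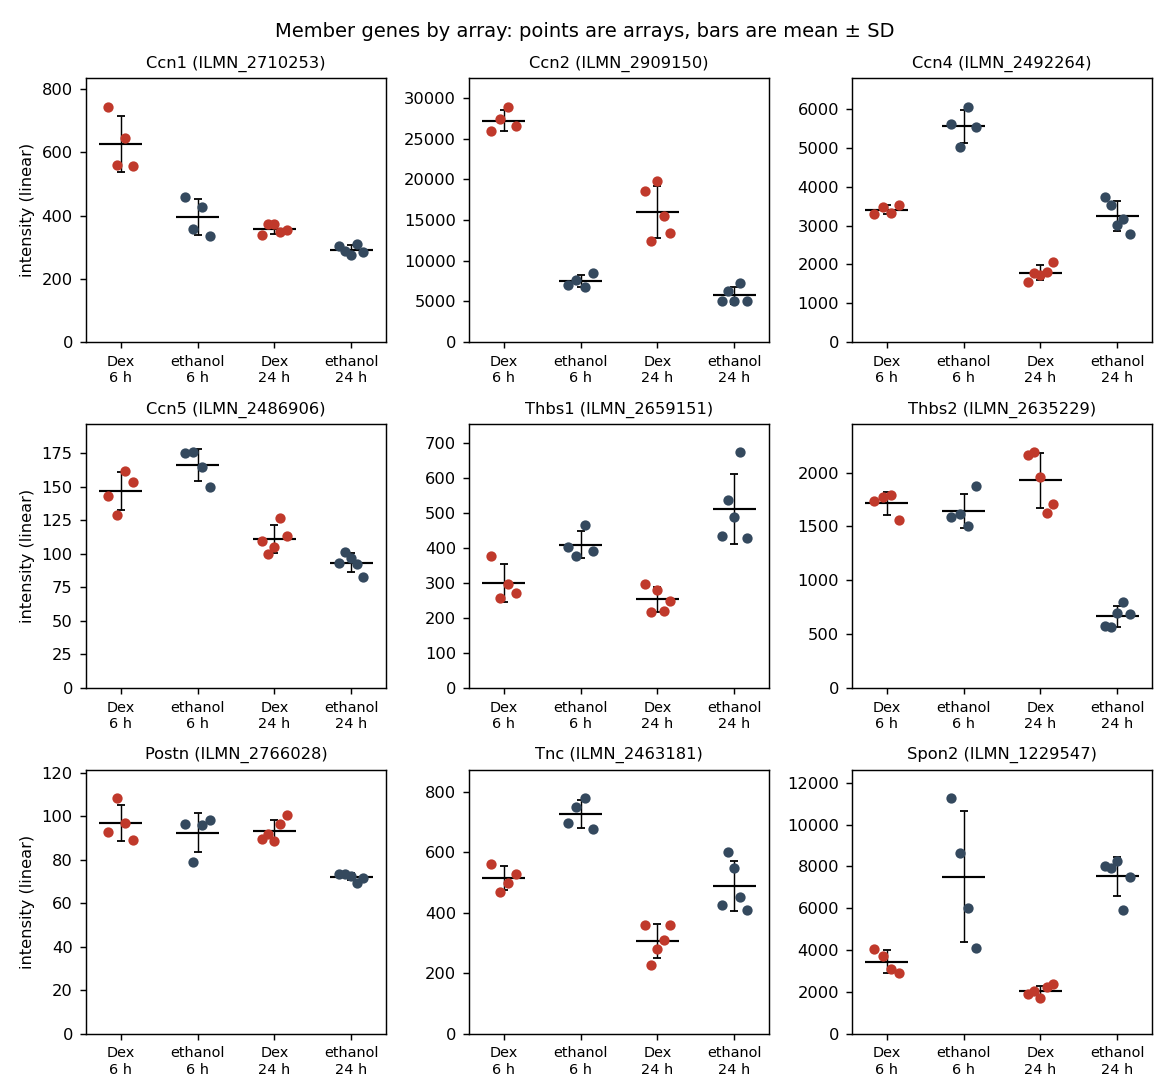
Linear intensity (y axis, from 0) of 9 member genes in each array, 1 probe a gene, for Dex and ethanol at 6 h and at 24 h. Points are arrays, horizontal lines are means and error bars are SD (n = 4 at 6 h, n = 5 at 24 h). Ccn2 stands above ethanol at both times, Thbs2 at 24 h alone, and Spon2, Ccn4 and Tnc below ethanol at both times.

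Among the CCN genes, Ccn2 encodes connective tissue growth factor, which promotes matrix production. Its probe ILMN_2909150 read 25875, 27395, 28908 and 26569 with 6 h of Dex, against 6983, 7666, 6809.9 and 8451 with ethanol. At 24 h it read 18585, 12395, 19788, 15442 and 13438 with Dex, against 5041, 6253, 5062, 7315 and 5012 with ethanol. At each time the lowest Dex array lay above the highest ethanol array. The means were 27187 ± 1305 and 7477 ± 747 (SD, n = 4 each) at 6 h, a log2 difference of 1.87 (SE 0.13) or 3.65-fold. At 24 h they were 15929.5 ± 3197 and 5737 ± 1027 (SD, n = 5 each), a log2 difference of 1.47 (SE 0.11) or 2.77-fold. The second probe (ILMN_1238215) gave 1.82 (SE 0.17) and 1.70 (SE 0.15). Ranked from the top among 45281 probes, the 2 Ccn2 probes stood at 16 and 18 at 6 h and at 42 and 32 at 24 h.

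Ccn1 encodes a related immediate-early secreted protein. Its probe with the largest difference (ILMN_2710253) read 745, 561, 645 and 558 with Dex at 6 h, against 459, 358, 426 and 336 with ethanol. The 24 h arrays read 339, 372, 374, 348 and 353 with Dex, against 305, 288, 274, 310.2 and 284 with ethanol. The groups did not overlap at either time, and the log2 difference was 0.67 (SE 0.09) at 6 h and 0.29 (SE 0.08) at 24 h. The other 2 probes had 0.38 (ILMN_2794645) and 0.31 (ILMN_1235571, groups overlapping) at 6 h. At 24 h they parted, with -0.02 (SE 0.08, groups overlapping) and 0.18 (SE 0.08), so the higher level at 24 h rests on 2 of 3 probes, of which ILMN_1235571 read at most 128 there. The lowest Dex array of ILMN_1235571 at 24 h read 109.6, and its highest ethanol array 109.5. ILMN_2794645 read 841, 766, 799 and 679.8 with Dex at 6 h, against 657, 516, 614 and 579.9 with ethanol, and 300.4, 353, 365, 370.2 and 330.4 with Dex at 24 h, against 390.2, 359.7, 314, 381 and 301 with ethanol. All of its Dex arrays lay above all ethanol arrays at 6 h, and the groups overlapped at 24 h.

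Ccn4, first found as a gene induced by Wnt signalling, was lower with Dex. Its probe ILMN_2492264 read 3286, 3478, 3334 and 3518 with Dex at 6 h, against 5605, 5018, 6057 and 5542 with ethanol. After 24 h it read 1535, 1776, 1728, 1814 and 2064 with Dex, against 3743, 3520.0, 3013, 3172 and 2774 with ethanol. Every Dex array lay below every ethanol array of its time, with log2 differences of -0.70 (SE 0.09) and -0.86 (SE 0.08). The second probe (ILMN_2453775) gave -0.60 and -0.83, also without overlap. After each array's minimum was taken off, the second probe gave -0.82 and -1.13, and the first -0.71 and -0.88.

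Ccn5 encodes the CCN protein that lacks the cysteine-knot module. Its single probe stayed below the 75th percentile of every array. It read 143, 129, 162 and 154 with Dex at 6 h, against 175, 176, 165 and 150.1 with ethanol, and 109.5, 99.6, 105, 127 and 113 with Dex at 24 h, against 93.3, 102, 96.9, 92.6 and 82.6 with ethanol. The groups overlapped at both times, and the log2 difference was -0.18 (SE 0.08) at 6 h and 0.25 (SE 0.07) at 24 h. Ccn1 and Ccn2 were thus higher with Dex at 6 h and Ccn4 lower, on 2 or more probes each, within 1 gene family.

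The thrombospondins differed in opposite directions at 24 h. Thbs1, the gene of the TGF-beta-activating member, has 1 probe, which read 378, 256, 296 and 271 with Dex at 6 h, against 402, 378, 466 and 393 with ethanol. At 24 h it read 297, 218, 281, 221 and 248 with Dex, against 435, 537, 490.3, 674 and 429 with ethanol. At 6 h 1 Dex array, at 378, lay within the ethanol range, and at 24 h the groups did not overlap. The log2 difference was -0.46 (SE 0.13) at 6 h and -1.01 (SE 0.11) at 24 h, which left 24 h Dex arrays 2.01-fold dimmer.

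Thbs2 encodes the close relative that is known to help clear the metalloproteinase MMP2 from the cell surface. Its probe read 1733, 1774, 1796 and 1558 with Dex at 6 h, against 1589.7, 1617, 1508 and 1875 with ethanol. In the 24 h arrays it read 2162, 2187, 1960.4, 1626 and 1708 with Dex, against 573, 565, 698, 798 and 689.7 with ethanol. The 6 h groups overlapped, and the 24 h groups stood far apart. The log2 difference was 0.06 (SE 0.10) at 6 h and 1.54 (SE 0.09) at 24 h, a change of 1.48 (SE 0.14) between times, the widest among the 22 probes. The means at 24 h were 1929 ± 256 with Dex and 665 ± 97.3 with ethanol (SD, n = 5 each), against 1715 ± 108 and 1647 ± 159 (SD, n = 4 each) at 6 h. The counterpart in Thbs1 was -0.55 (SE 0.17).

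**Figure D2:**
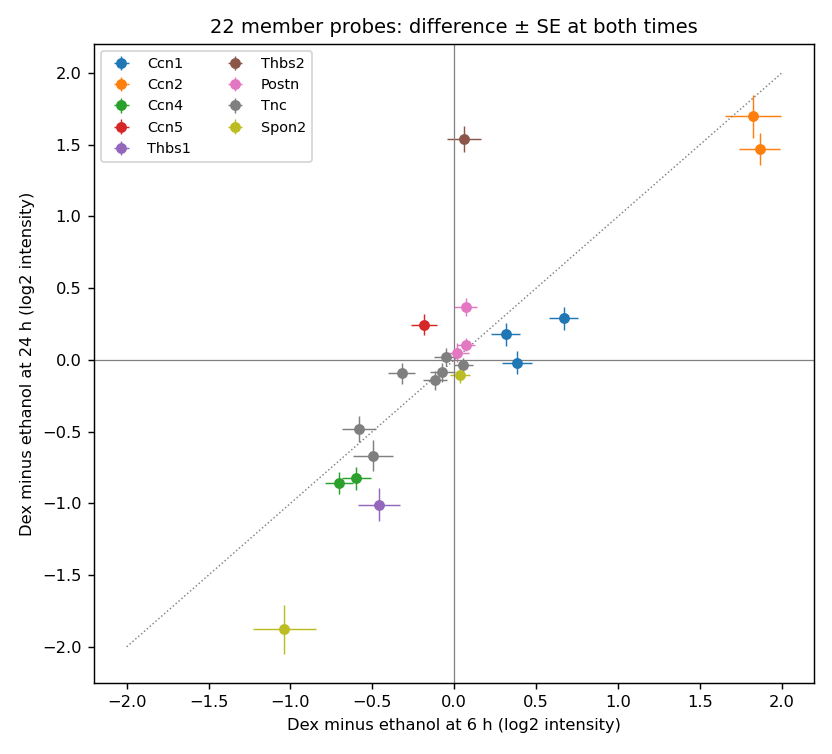
Log2 difference between Dex and ethanol at 24 h (y axis) against that at 6 h (x axis) for the 22 member probes, coloured by gene, with SE bars from the model and a dotted line of equal differences. Thbs2 lies at 0.06 at 6 h and 1.54 at 24 h, the Ccn2 probes lie top right, and Spon2 lies bottom left at -1.04 and -1.88.

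Spon2 encodes mindin, a secreted protein of the F-spondin family that binds integrins. Its probe ILMN_1229547 read 4070.0, 3709.7, 3080.0 and 2904 with Dex at 6 h, against 11256, 8653, 6031 and 4089 with ethanol. The 24 h readings were 1882, 2019, 1722, 2251 and 2355 with Dex, against 8033, 7929.8, 8244, 5917 and 7473 with ethanol. At 6 h the ethanol arrays were spread widely and the lowest of them barely cleared the highest Dex array, while at 24 h the gap was wide. The means at 24 h were 2046 ± 259.7 and 7519 ± 939 (SD, n = 5 each), so Dex arrays were 3.67-fold dimmer. The log2 difference was -1.04 (SE 0.19) at 6 h, between -1.30 and -0.81 as single arrays were left out, and -1.88 (SE 0.17) at 24 h, the 4th lowest of 45281 probes. The other probe (ILMN_1251457) stayed near the array median, at 97.2, 90.5, 105 and 107 with Dex and 100.2, 96.0, 103 and 90.9 with ethanol at 6 h, and at 79.8, 81.3, 82.3, 87.1 and 80.6 with Dex and 91.8, 89.7, 86.8, 82.5 and 92.4 with ethanol at 24 h. Its groups overlapped at both times, with log2 differences of 0.03 and -0.11.

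Tnc encodes tenascin-C, a hexameric glycoprotein of developing and injured tissue. Of its 7 probes, ILMN_2463181 read 562, 469, 498 and 529.7 with Dex at 6 h, against 696, 749.5, 779 and 679 with ethanol. At 24 h its arrays read 360.5, 227, 281, 311 and 359.5 with Dex, against 428, 601, 549.9, 452 and 409 with ethanol. All Dex arrays lay below all ethanol arrays of their time. The log2 difference was -0.50 (SE 0.12) and -0.67 (SE 0.11), and a second probe (ILMN_2463180) gave -0.58 and -0.48, again without overlap. The other 5 Tnc probes lay below the 75th percentile of every array, and their groups overlapped at both times. Among them were the probes whose sign differed from that of ILMN_2463181 at a time. At 24 h ILMN_1236724 read 88.6, 82.6, 93.8, 88.3 and 89.3 with Dex, against 88.9, 91.0, 81.7, 83.5 and 90.8 with ethanol, and at 6 h 106, 113, 96.2 and 89.1 with Dex, against 118, 100.1, 98.0 and 102 with ethanol. ILMN_1251943 read 96.9, 88.8, 83.6 and 82.2 with Dex at 6 h, against 82.6, 79.9, 88.0 and 87.0 with ethanol, and 75.2, 77.0, 72.9, 70.7 and 76.8 with Dex at 24 h, against 75.3, 73.7, 77.2, 74.2 and 81.9 with ethanol. Both stayed near the array medians.

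Postn encodes periostin, a fasciclin-domain protein of fibrous tissue. All 3 of its probes lay below the 75th percentile of every array. One of them (ILMN_2766028) read 89.5, 91.9, 88.8, 96.6 and 101 with Dex at 24 h, against 73.7, 73.5, 72.6, 69.5 and 71.8 with ethanol, which did not overlap, a log2 difference of 0.37 (SE 0.06). At 6 h it read 92.8, 108, 97.0 and 89.2 with Dex, against 96.3, 79.0, 95.9 and 98.4 with ethanol, which overlapped (0.07, SE 0.07). The other 2 probes had 0.11 and 0.05 at 24 h with overlapping groups. Since the 24 h ethanol arrays of ILMN_2766028 read below the array medians, no level of Postn is shown there.

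In all, 10 of the 22 probes lay below the 75th percentile of every array, and their log2 differences ran from -0.32 to 0.07 at 6 h and from -0.14 to 0.37 at 24 h. With each array's minimum taken off, the same 10 probes ran from -0.64 to 0.20 at 6 h and from -0.32 to 0.82 at 24 h. Postn ILMN_2766028 then had 0.82 at 24 h, Tnc ILMN_2485085 -0.64 at 6 h and Ccn5 0.44 at 24 h, so the size of these differences depends on the background taken off.

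**Figure D3:**
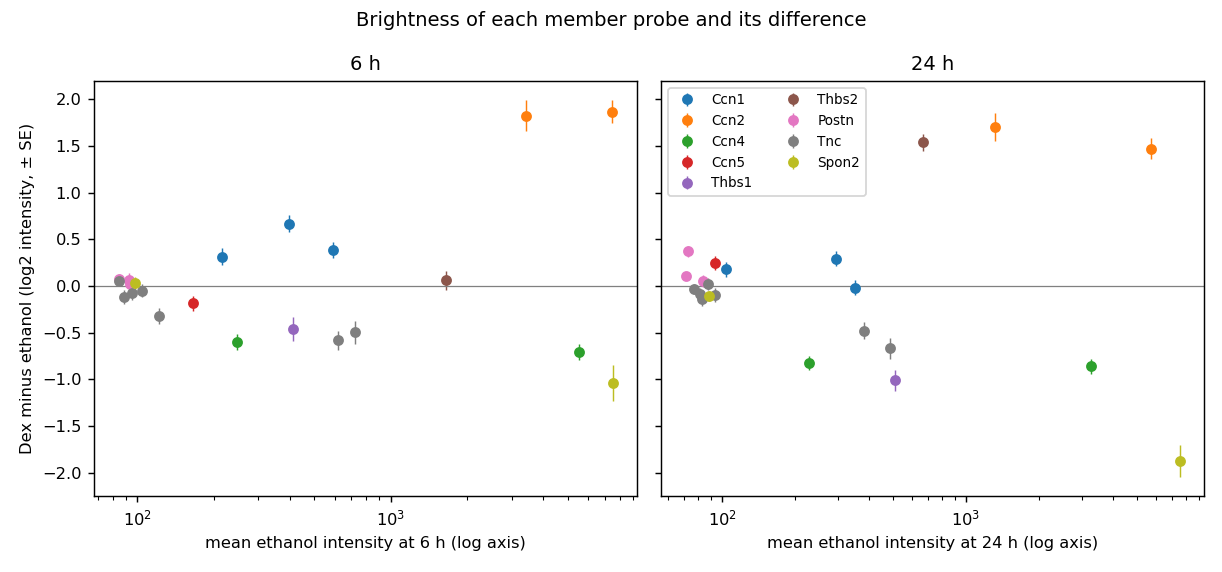
Log2 difference between Dex and ethanol (y axis, ± SE) of each member probe against its mean ethanol intensity (x axis, log scale), at 6 h on the left and 24 h on the right. The differences beyond 1 in size belong to probes above 500. Below 150 the furthest from 0 are Postn ILMN_2766028 at 0.37 (24 h) and Tnc ILMN_2485085 at -0.32 (6 h).

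The ethanol arrays were also set against each other, 24 h against 6 h. They are the same arrays that entered the Dex differences on which the members were chosen. The values and counts of calls for members are therefore a description only, and no conclusion about the members is drawn from them. As deposited, 19 of the 22 member probes passed limma's adjusted p threshold of 0.05, 18 lower and 1 higher at 24 h, as did 79.2% of all probes (1.57% higher and 77.6% lower), and the median of all probes was -0.24 on the log2 scale. The arrays of the 2 times thus sit on different scales, and time and scale cannot be told apart. After quantile normalization over the 18 arrays, which put the median of all probes at 0.01, 9 of the 22 passed, 6 lower and 3 higher at 24 h, as did 24.1% of all probes (12.5% higher and 11.7% lower). Nothing is read from these counts.

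On that common scale Thbs2 in ethanol averaged 765 at 24 h, against 1355 at 6 h (geometric means), a log2 difference of -0.82 (SE 0.10). Thbs1 averaged 589 at 24 h, against 345 at 6 h, a log2 difference of 0.77 (SE 0.12). As deposited these differences were -1.32 (SE 0.10) and 0.31 (SE 0.12), so each had the same sign on both scales. Ccn5 had -0.56 (SE 0.08).

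Probes of a gene split in this comparison. For Ccn2, ILMN_1238215 had -0.85 and ILMN_2909150 0.04 on the common scale. The 3 Ccn1 probes had -0.74, -0.29 and 0.01. For Ccn4, ILMN_2453775 had 0.27, which was -0.13 as deposited, and ILMN_2492264 had -0.31. Spon2 (ILMN_1229547) had 0.51 on the common scale and 0.09 as deposited, or -0.17 without ethanol replicate 4 at 6 h. The 7 Tnc and 3 Postn probes ran from -0.23 to 0.12 on the common scale.

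**Figure D4:**
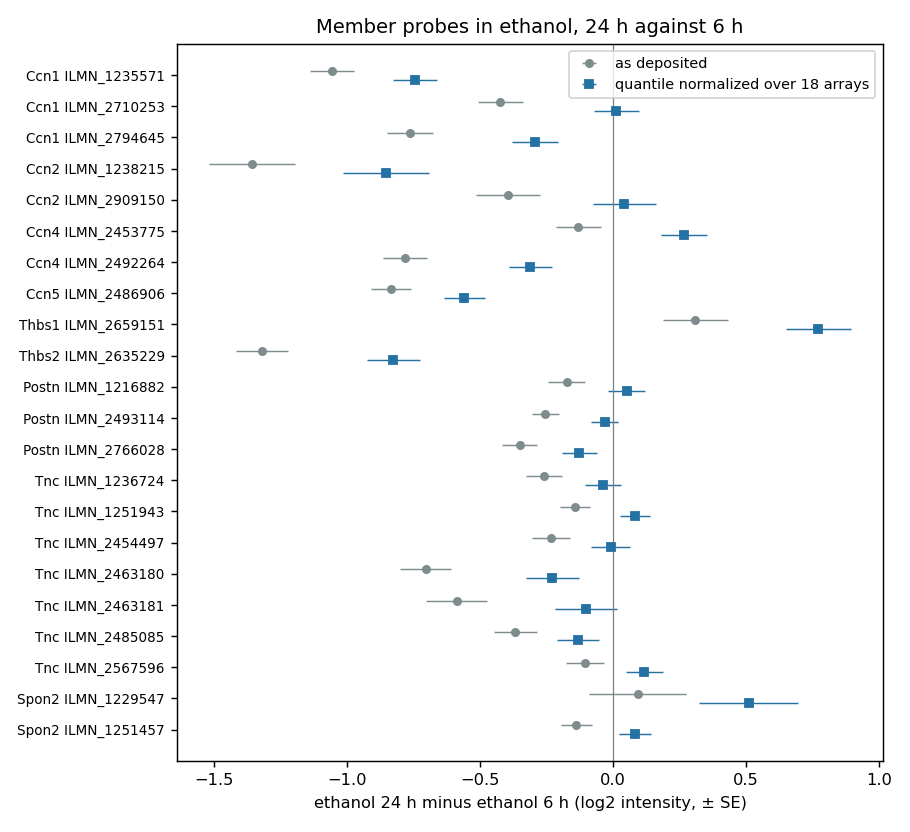
Log2 difference of the 22 member probes between ethanol at 24 h and ethanol at 6 h (x axis, ± SE), as deposited (grey circles) and after quantile normalization over 18 arrays (blue squares). Every probe lies further right on the common scale, where Thbs2 has -0.82 and Thbs1 0.77.

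Genes related to the members by role were tested with the same model over all 45281 probes. These 76 genes had 176 probes, of which 23 passed the test at 6 h (11 up and 12 down), which is 13.1% against 6.26% of all probes (2.98% higher and 3.28% lower). At 24 h 43 passed (14 up and 29 down), or 24.4% against 12.6% of all probes (6.43% higher and 6.22% lower). The Dex effect differed between the times for 8 of the 176, 4 in each direction, or 4.55% against 3.7% of all probes (2% higher and 1.7% lower). The median log2 difference of the 176 probes was 0.01 at 6 h and -0.01 at 24 h, against 0.00 for all probes at either time. With the nearly empty directions of the spread between arrays, found in bright probes, as covariates, 29 passed at 24 h. The p-values here are taken as too small because of these directions.

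Of 28 other matrix and matricellular genes (63 probes, 6 called at 6 h and 11 at 24 h, median log2 differences 0.015 and 0.020), 1 had a probe called higher and 2 lower at 6 h, and 4 higher and 3 lower at 24 h. Fbln1, the gene of the elastic-fibre and basement membrane protein fibulin-1, rose at both times. It read 1480.4, 1699.7, 1766, 1551 and 1459 with Dex at 24 h, against 651, 591, 550.2, 674 and 621 with ethanol. The log2 difference was 0.68 (SE 0.13, limma adjusted p = 0.00107) at 6 h and 1.37 (SE 0.11, limma adjusted p = 4.85e-09) at 24 h, and 4 of its 5 probes were called higher at each time. Over the 5 probes the differences ran from 0.25 to 0.68 at 6 h and from 0.10 to 1.37 at 24 h. Its relative Fbln2 had 0.38 (SE 0.07, limma adjusted p = 0.000936) at 24 h on 1 of 3 probes.

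Fstl1, the gene of a secreted follistatin-like glycoprotein, fell at 24 h with -0.49 (SE 0.08, limma adjusted p = 0.000222). Sparc encodes the collagen-binding matricellular protein osteonectin. Its probe ILMN_1243212 had -0.37 (SE 0.07, limma adjusted p = 0.00111) at 6 h, but its other 2 probes were not called at either time. Tgfbi, the relative of Postn, read 94.6 ± 8.12 with Dex and 117 ± 7.37 with ethanol at 6 h (SD, n = 4 each), with -0.31 (SE 0.09, limma adjusted p = 0.0316) on 1 of 2 probes. That call at 6 h ended with the covariates (limma adjusted p = 0.0965), array weights (0.0689) or the replicate block (0.0585). It also ended without Dex replicate 1 or 3 or ethanol replicate 3 or 4 at 6 h (0.0728 to 0.107). The same Tgfbi probe was called lower at 24 h, with -0.23 (SE 0.08, limma adjusted p = 0.0479), though its groups overlapped there.

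Of 22 receptors and binding partners (62 probes, 9 called at 6 h and 15 at 24 h, medians 0.0069 and -0.028), 3 had a probe called higher and 4 lower at 6 h, and 4 higher and 6 lower at 24 h, with Itgav in both counts. Cd47, the thrombospondin receptor, rose on both of its probes at both times. It read 746, 643, 633 and 814 with Dex at 6 h, against 436, 571, 542 and 469 with ethanol, without overlap. Its log2 difference was 0.49 (SE 0.08, limma adjusted p = 0.000373) at 6 h and 0.32 (SE 0.07, limma adjusted p = 0.0048) at 24 h. Itga5, the integrin alpha subunit that binds fibronectin, rose on both probes at 6 h with 0.56 (SE 0.09, limma adjusted p = 0.000201). It had a probe called higher at 24 h as well.

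Fn1, the gene of fibronectin itself, fell at 24 h on 3 of 4 probes, with -0.58 (SE 0.08, limma adjusted p = 6.92e-06). A probe of Fn1 was called lower at 6 h too. The heparan sulphate proteoglycan gene Sdc1 had -0.44 (SE 0.09, limma adjusted p = 0.00323) at 6 h on 1 of 3 probes, and a probe called lower at 24 h. Itgav, the integrin subunit shared by many matricellular receptors, had -0.37 (SE 0.07, limma adjusted p = 0.00132) at 24 h for ILMN_1238119, while its probe ILMN_1234725, near the array median, was called higher (0.16).

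Of 26 regulators and genes that respond to the same signals (51 probes, 8 called at 6 h and 17 at 24 h, medians -0.031 and -0.021), 2 had a probe called higher and 4 lower at 6 h, and 1 higher and 9 lower at 24 h. Ankrd1, a cardiac and skeletal muscle ankyrin repeat gene and a widely used YAP and TAZ target, read 5722, 4266, 5189, 5629 and 5545 with Dex at 24 h, against 10158, 11892, 10759, 8779 and 11278 with ethanol. Its log2 difference was -1.005 (SE 0.11, limma adjusted p = 5.16e-07) at 24 h on ILMN_2625451, and its second probe was called lower too. At 6 h it was -0.21 (SE 0.12, limma adjusted p = 0.371). Ccn1 (ILMN_2710253) and Ccn2 (ILMN_2909150), which share that textbook control, stood at 0.67 and 1.87 at 6 h and at 0.29 and 1.47 at 24 h. The Ccn1 values depend on the probe. ILMN_2794645 had 0.38 at 6 h and -0.02 at 24 h, and ILMN_1235571 had 0.31 and 0.18.

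Wwtr1, which encodes TAZ, fell on all 3 probes at 24 h, with -0.44 (SE 0.07, limma adjusted p = 5.93e-05) for ILMN_1219016. Egr1, an immediate-early transcription factor gene with 1 probe, fell with -0.58 (SE 0.08, limma adjusted p = 5.79e-05) at 6 h and -0.43 (SE 0.08, limma adjusted p = 0.000429) at 24 h. Of the TGF-beta pathway, Tgfbr2, the type II receptor gene, had -0.40 (SE 0.08, limma adjusted p = 0.00323) at 6 h on 2 of 4 probes. Skil, a SMAD corepressor gene, had -0.38 (SE 0.07, limma adjusted p = 0.000922) at 6 h on 2 of 3. Each of these genes also had a probe called lower at 24 h. Tgfbr1, the type I receptor gene, went the other way, with a probe called higher at 6 h and at 24 h. Tgfb3 had a probe called lower at 6 h, and Tgfb2 and Smad3 had one at 24 h.

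**Figure D5:**
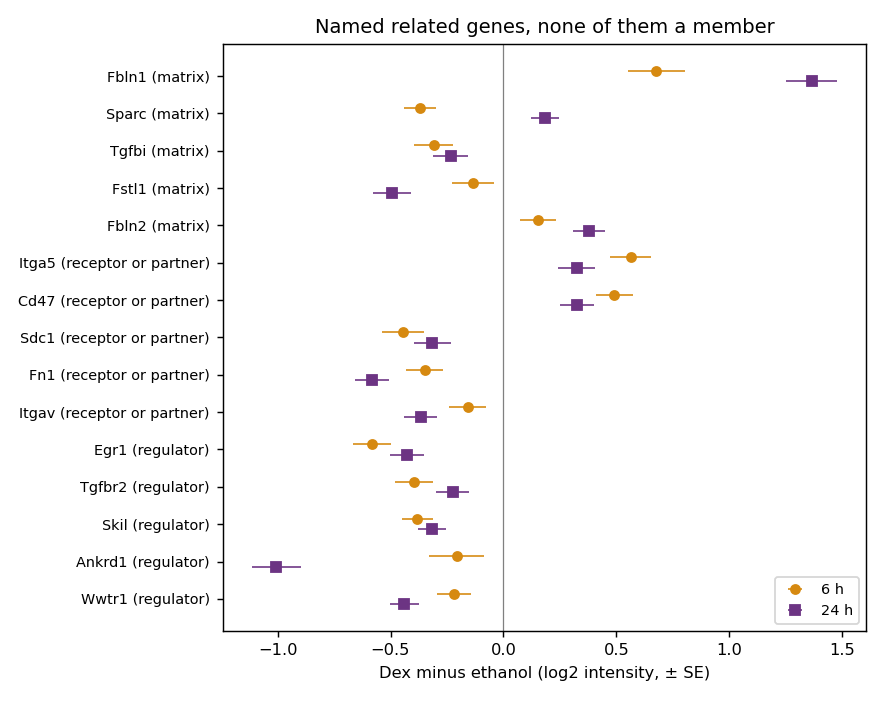
Log2 difference between Dex and ethanol (x axis, ± SE) of 15 named related genes, none a member, at 6 h (circles) and 24 h (squares), grouped as matrix genes, receptors or partners, and regulators. Fbln1 reaches 1.37 at 24 h, and Ankrd1 lies furthest to the left at 24 h.

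The genes closest in pattern to the most strongly higher and most strongly lower member were sought over the 18 arrays, each array taken relative to the ethanol mean of its time. For Ccn2 (ILMN_1238215) the 3 closest included Ctla2b, a cysteine protease inhibitor gene, and Errfi1, an inhibitor of the EGF receptor, at root mean square differences of 0.262 and 0.345 on the log2 scale. Errfi1 had log2 differences of 1.78 and 1.76, and Ctla2b 1.88 and 1.79. For Spon2 (ILMN_1229547) they were the glutamate transporter gene Slc1a3, the BMP antagonist gene Grem1 and the retinoic acid-binding protein gene Crabp2, at 0.275, 0.383 and 0.384. Slc1a3 had log2 differences of -1.30 and -1.80, and Grem1 -0.78 and -1.42.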

How the data were processed

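The values are linear probe intensities, which the authors made with lumi per the submitters' processing notes and deposited. The sources used here give neither its version nor the background correction, normalization or detection calls, so which probes lay above background is unknown and the number of arrays limits the precision. Per the file annotation, 34885 of 45281 probes had 1 gene symbol, 18 several and 10378 none. For 34807 of those with 1 symbol, the symbol was looked up by gene identifier (GRCm38.p6), whether or not it changed. Log2 was taken with a pseudocount of 0. Group means (4 groups) were fitted to all 45281 probes and 18 arrays with lmFit and eBayes (limma 3.58.1, R 4.3.3), with Benjamini-Hochberg adjustment over all probes and a threshold of 0.05. SE come from this model. The fit was tested on simulated data with independent noise between arrays. That setting lacks the nearly empty directions described below, so it cannot check the SE and p-values of these arrays. All 4 or 5 arrays a group that the labels number were used, although the series text states triplicates.

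Among the 1126 probes with the highest mean log2 intensity, deviations from the group means nearly vanished in 4 directions of the 14 that the arrays allow (1 at 6 h, 3 at 24 h). The SE and p-values of all probes are therefore taken as too small, though dimmer probes were not examined for this. An alternative fit took these directions as covariates. Deviations of same-numbered Dex and ethanol arrays correlated at -0.109 to 0.17 at 6 h. At 24 h they correlated at -0.914, -0.755 and -0.744 for replicates 1 to 3, and at -0.311 and -0.181 for replicates 4 and 5. Same-numbered arrays at 24 h were thus linked, with deviations in opposite directions, and the cause was not tested. The main fit did not use the replicate numbers.

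The members and lists were chosen with earlier results of these data known. The ethanol comparison of members uses arrays that entered that choice and is given as a description. Named were every member and, for each related list and time, the 3 genes with the largest difference among called probes without overlap. Further probes of Sparc, Fbln1 and Itgav were named after their values were seen. So were the markers Scx, Pdgfra, Myog, Ckm, Actn2 and Myod1, and the related genes Tgfbr1, Tgfb2, Tgfb3 and Smad3. One gene that the rule on likeness of pattern names is not reported here. Alternatives were the brightest probe per gene, minimum subtraction, quantile normalization, array weights, a replicate block, each time alone and single arrays left out.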

Additional observations from a re-analysis of the deposited data

Results flagged for a closer look

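In a check of 148 groups of arrays (37 probes), 5 held an array far from its fellows, where chance gives about 1 in 20. Among the members this was ethanol replicate 2 at 6 h for Postn (ILMN_2766028), at 79.0 against 95.9 to 98.4 in the others. For Egr1, ethanol replicate 2 at 6 h stood high at 8372 and Dex replicate 2 at 24 h low at 3286. For Itgav (ILMN_1238119), Dex replicate 1 at 24 h read 177, and for Tgfbr2 (ILMN_2760979) Dex replicate 4 at 6 h read 6467.

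The Dex effect differed between times for 3 named related probes by the interaction in the limma fit (8 of 176 related probes passed, 4.55%, against 3.7% of all probes). Ankrd1 (ILMN_2625451) had a further log2 change of -0.80 (SE 0.16, limma adjusted p = 0.00703) at 24 h relative to 6 h, lower in 5 of 5 Dex arrays at 24 h. Fbln1 (ILMN_2870672) had 0.69 (SE 0.17, limma adjusted p = 0.0223), with Dex arrays higher at both times. No other Fbln1 probe passed for the change between times, with 0.12, -0.07, -0.15 and 0.18 (limma adjusted p = 0.326 to 0.845). Sparc (ILMN_1243212) had 0.55 (SE 0.09, limma adjusted p = 0.0014), with a fall at 6 h and 0.18 at 24 h, which did not pass the test (limma adjusted p = 0.0511). The other 2 Sparc probes did not share that pattern.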

How the results depend on the processing

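With the brightest probe per gene, 12 related genes were called at 6 h, 23 at 24 h and 4 for the change between times, and 8 member genes for ethanol at 24 h against 6 h, in place of counts of probes. With each array's minimum taken off, 12 member probes were called in the ethanol comparison and 5 related probes for the change between times, and with the nearly empty directions as covariates 3 of the latter. Quantile normalization gave 9 member probes in the ethanol comparison. Leaving out single arrays gave 19 to 26 related probes at 6 h, 34 to 40 at 24 h, 6 to 10 for the change between times and 16 to 19 member probes in ethanol. The replicate block gave 19, 36, 8 and 16 for these 4 counts. Where their groups did not overlap, Dex differences of members kept their sign in every setting in which they were taken. They were not taken for the brightest probe, array weights, each time alone or the covariates. In all, 12 values, all of them with the array minimum taken off, moved beyond the replicate SD.

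In the ethanol comparison 3 member probes changed sign with the minimum taken off, namely Tnc ILMN_1251943 (0.092), Tnc ILMN_2567596 (0.143) and Spon2 ILMN_1251457 (0.031). With quantile normalization 7 did, namely Ccn1 ILMN_2710253 (0.011), Ccn2 ILMN_2909150 (0.043), Ccn4 ILMN_2453775 (0.267), Postn ILMN_1216882 (0.051), Tnc ILMN_1251943 (0.083), Tnc ILMN_2567596 (0.116) and Spon2 ILMN_1251457 (0.082). Without ethanol replicate 4 at 6 h, Spon2 ILMN_1229547 did (-0.17). The interaction of Fbln1 lost its call with the covariates (limma adjusted p = 0.0688), with the minimum taken off (0.0613) and without Dex replicate 3 at 6 h (0.0540). The cause was not tested in any case.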
